A study of Mus musculus with 12 samples.

Results

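The variable segments of the immunoglobulin kappa light chain were examined in mandibular lymph nodes: 100 genes whose annotated symbol begins with Igkv and whose annotated class is a functional immunoglobulin variable gene, out of 56941 genes in the deposited table. All 100 lie on mouse chromosome 6. They were matched by Ensembl gene ID to the GENCODE M21 annotation, and the 60 Igkv pseudogenes of the same annotation were kept apart. The series holds 12 RNA-seq libraries in 4 groups of 3. KO_DTH nodes came from mice lacking the microRNA miR-451a that were sensitized with 0.5% 1-fluoro-2,4-dinitrobenzene (DNFB, a contact allergen; 100 μl to abdominal skin on days 0, 1 and 2), challenged with 20 μl of 1% DNFB on the left ear on day 9 and sampled 24 hours later, on day 10. KO_se nodes came from miR-451a knockout mice that were sensitized in the same way and sampled on day 9 with no challenge. WT_DTH and WT_se nodes came from wild-type mice treated like KO_DTH and KO_se. All 4 groups were therefore sensitized, and no group was left untreated. Challenge and day of harvest changed together and cannot be told apart. Nothing in the labels ties the 3 libraries of a group to different animals; the spread that p-values rest on is that between these libraries and may be technical. Ages, strain background and the design of the knockout allele are not given in the labels, and Mir451a itself was not analysed here.

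An antibody is built of heavy chains and light chains, and in mice most light chains are of the kappa type. A developing B cell joins a single Igkv segment to a single Igkj joining segment, and the joined exon is spliced to the constant exon Igkc. A mature B cell therefore transcribes mainly the Igkv segment it has chosen, and the counts of a lymph node over all Igkv segments describe how many B cells and plasma cells use each segment, weighted by how much light chain RNA each cell makes. Plasma cells, which secrete antibody, hold far more of this RNA than resting B cells. In bulk RNA, fewer cells that use a segment and less RNA per cell cannot be told apart.

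The part of a kappa segment that touches the joining segment encodes the start of the third hypervariable loop, CDR3, which lies at the centre of the antigen-binding site. The germline ends of the segments on which the results below turn are printed 5′ to 3′, from the GENCODE M21 transcripts, as the last 90 bases of each segment. Capitals mark the stretch from the codon of the conserved cysteine that opens CDR3 to the germline end. The leading segments of the node and a close copy of each are the following.
Igkv10-96: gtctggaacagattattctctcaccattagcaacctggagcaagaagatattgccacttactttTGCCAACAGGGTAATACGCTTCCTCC
Igkv10-94: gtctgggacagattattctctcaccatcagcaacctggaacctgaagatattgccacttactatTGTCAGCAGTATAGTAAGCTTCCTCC
Igkv1-117: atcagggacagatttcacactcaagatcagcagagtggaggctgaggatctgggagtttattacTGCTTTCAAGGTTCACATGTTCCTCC
Igkv1-110: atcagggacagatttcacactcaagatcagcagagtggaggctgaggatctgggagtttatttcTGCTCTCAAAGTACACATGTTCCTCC

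The segments that were prominent in a single library are shown because the account of single libraries further on turns on them.
Igkv6-32: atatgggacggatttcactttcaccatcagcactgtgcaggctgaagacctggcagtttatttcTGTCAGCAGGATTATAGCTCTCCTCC
Igkv3-1: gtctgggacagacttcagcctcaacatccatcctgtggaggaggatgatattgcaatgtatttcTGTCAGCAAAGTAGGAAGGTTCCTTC
Igkv8-28: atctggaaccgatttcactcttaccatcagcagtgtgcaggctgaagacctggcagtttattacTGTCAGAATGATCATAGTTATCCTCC
Igkv4-80: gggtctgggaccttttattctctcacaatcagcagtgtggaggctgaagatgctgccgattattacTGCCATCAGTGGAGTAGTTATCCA
Igkv9-124: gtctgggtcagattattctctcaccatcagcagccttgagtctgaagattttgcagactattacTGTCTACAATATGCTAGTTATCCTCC

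A further pair is shown because both members rose with the knockout and their printed ends are identical, so reads from this stretch cannot be assigned to either.
Igkv5-43: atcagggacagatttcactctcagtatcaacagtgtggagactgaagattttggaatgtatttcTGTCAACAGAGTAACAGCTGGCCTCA
Igkv5-45: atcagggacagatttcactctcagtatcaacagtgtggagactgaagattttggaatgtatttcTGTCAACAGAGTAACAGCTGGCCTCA

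Over the last 280 bases Igkv5-43 and Igkv5-45 differ at 3 positions, with an identity of 98.9%. Igkv1-117 and Igkv1-110 differ at 9 positions (96.8% identity), and Igkv10-96 and Igkv10-94 at 16 positions (94.3% identity). Across all 100 members the identity to the most similar other member had a median of 94.3% and ranged from 66.4 to 98.9%. It was 95% or more for 46 members, and for 93 members the most similar segment was of the same family. How the authors' counting split reads between such copies is not given in the sources used here, so values of near copies are uncertain against each other.

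The deposited values are estimated counts per gene. Library totals ran from 36946696 to 58405576 counts, and the Igkv members held 10666 to 48398 of them. Between 88 and 95 of the 100 members had a count in a given library, and Igkv1-131 and Igkv1-35 had none in any library. The Igkv pseudogenes added only 0.217 to 0.514% to the Igkv counts. B cell markers were present, as in any lymph node: all 12 genes of a B cell list, among them Ms4a1 (the surface protein CD20) and Cd79b (a signalling chain of the B cell receptor), passed the filter on low counts. Genes of the salivary gland, which lies against this node, held 2.08 to 14.6% of counts, and mitochondrial genes 4.53 to 19.4%, so the libraries differ in how much other tissue and mitochondrial RNA they hold.

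The first question was how much kappa variable RNA each group held. In KO_DTH nodes the Igkv members made up 0.0404, 0.0504 and 0.0633% of all counts in replicates 1, 2 and 3. The shares were 0.0829, 0.0731 and 0.0529% in KO_se nodes, 0.0676, 0.0454 and 0.0527% in WT_DTH nodes, and 0.0357, 0.0244 and 0.0314% in WT_se nodes. All 9 libraries of the other groups lay above the 3 WT_se libraries, and the other groups overlapped one another.

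Sensitized knockout nodes held 2.28 times the Igkv share of sensitized wild-type nodes, at 0.0696 ± 0.0153% in KO_se against 0.0305 ± 0.00569% in WT_se (SD, n = 3 each). The exact two-sided permutation test gave p = 0.1, the smallest value that 3 against 3 libraries allow, or 0.394 with Benjamini-Hochberg adjustment over the 15 exact tests made. Challenged nodes of the genotypes differed by less than the spread between libraries, with 0.0514 ± 0.0115% in KO_DTH and 0.0552 ± 0.0113% in WT_DTH (SD, n = 3 each; exact permutation p = 0.7, adjusted 0.8). Wild-type nodes held 1.81 times as much after challenge as before it (WT_DTH against WT_se, exact permutation p = 0.1, adjusted 0.394). In knockout nodes the difference of KO_DTH from KO_se was −0.0183 percentage points (exact permutation p = 0.2, adjusted 0.6), with overlapping groups. The genotype effect averaged over both states was 0.0176 percentage points (exact permutation p = 0.105, adjusted 0.394).

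Per library total, the group means of the constant exon Igkc fell in the same order as those of the segments. Its level per library total was 942 ± 200 CPM (counts scaled to a common library size) in KO_DTH, 1123 ± 236 in KO_se, 964 ± 214 in WT_DTH and 470 ± 93.9 in WT_se nodes (SD, n = 3 each). After TMM normalisation of library size it was 940 ± 187 CPM in KO_DTH, 1136 ± 264 in KO_se, 854 ± 174 in WT_DTH and 523 ± 97.4 in WT_se nodes. The order of KO_DTH and WT_DTH thus depended on the scaling. The Igkv members together had 0.545 ± 0.0173 counts per Igkc count in KO_DTH, 0.619 ± 0.0113 in KO_se, 0.577 ± 0.0534 in WT_DTH and 0.650 ± 0.0208 in WT_se nodes (SD, n = 3 each).

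**Figure D1:**
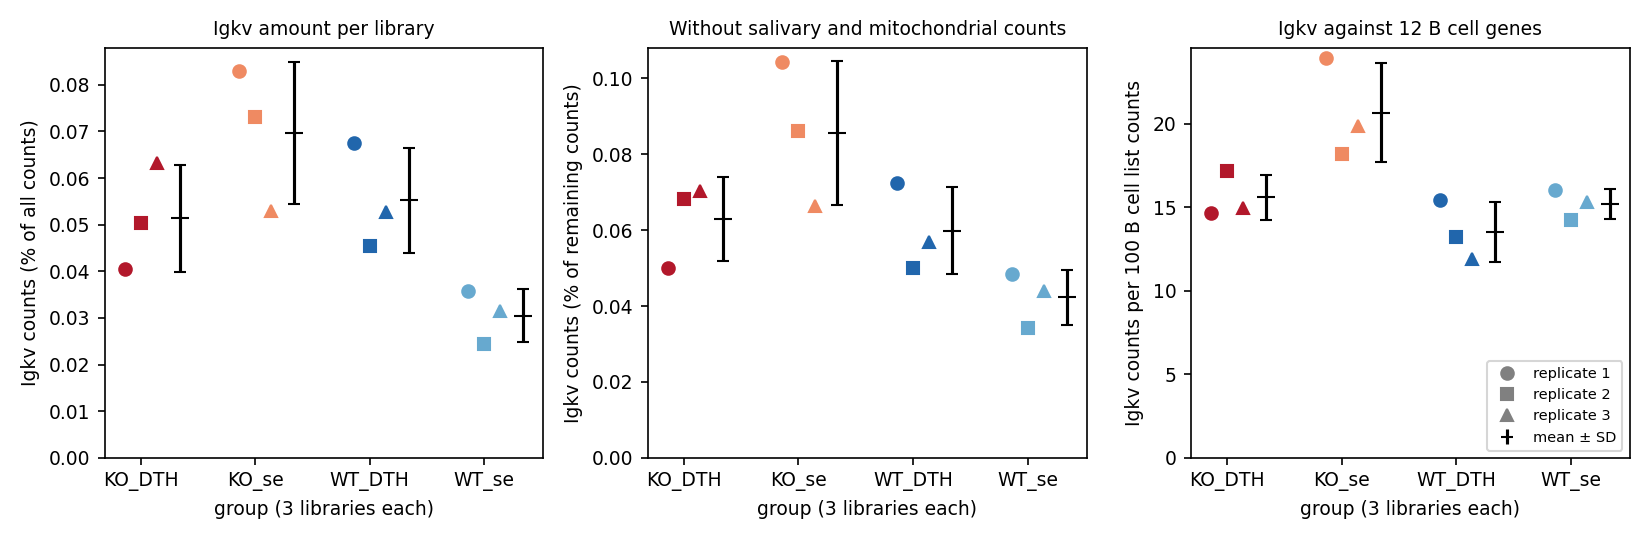
Igkv counts in each library (symbols; colours are groups) with the mean ± SD of 3 libraries, as a percent of all counts (left), as a percent of the counts outside the salivary gland list and the mitochondrial genes (middle), and per 100 counts of 12 B cell genes (right). The 3 WT_se libraries lie lowest in the left and middle panels, and the 3 KO_se libraries lie highest in the right panel.

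The amount moved beside other tissue and beside the B cell content, so those values stand here. The salivary list held 7.77 ± 3.13% of counts in KO_DTH, 4.67 ± 2.04% in KO_se, 2.60 ± 0.689% in WT_DTH and 10.7 ± 3.76% in WT_se nodes (SD, n = 3 each). With the salivary and mitochondrial counts taken out of the total, the Igkv share was 0.0629 ± 0.0111% in KO_DTH, 0.0856 ± 0.0190% in KO_se, 0.0599 ± 0.0115% in WT_DTH and 0.0423 ± 0.00731% in WT_se nodes, and KO_se and WT_se libraries still did not overlap. The 12 B cell genes together held 0.331 ± 0.0808% of counts in KO_DTH, 0.338 ± 0.0685% in KO_se, 0.408 ± 0.0559% in WT_DTH and 0.199 ± 0.0259% in WT_se nodes. Set against these B cell counts, a scaling chosen after the data were seen, the nodes held 15.6 ± 1.36 Igkv counts per 100 in KO_DTH, 20.7 ± 2.97 in KO_se, 13.5 ± 1.79 in WT_DTH and 15.2 ± 0.908 in WT_se (SD, n = 3 each). On this scale KO_se minus WT_se was 5.46 (exact permutation p = 0.1, adjusted 0.167) and KO_DTH minus WT_DTH was 2.08 (p = 0.3, adjusted 0.3). The genotype effect averaged over both states was 3.77 (exact permutation p = 0.015, or 0.075 adjusted over the 5 comparisons made on it). With challenge, KO_DTH minus KO_se was −5.07 (exact permutation p = 0.1, adjusted 0.167) and WT_DTH minus WT_se was −1.69 (exact permutation p = 0.3).

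The second question was which segments the counts fall on. Use was broad but unequal. An equal split would give each segment 1% of Igkv counts, and 38 segments had a mean share above 1%, while 18 were below 0.1%. The 17 leading segments held 50% of the mean share, and the 15 leading segments held 46.4%. The annotated segments are of similar length, 338 to 501 bases in the longest transcript, and 14 of the 15 leading segments were also among the 15 leading ones with counts divided by length. The 3 leading segments were the same, in the same order, on both scales. At the low end of the tested members stood Igkv4-81, Igkv1-132 and Igkv8-34, with mean shares of 0.0304, 0.0356 and 0.0364%.

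Igkv10-96 led by mean share over the 12 libraries, at 5.46%. It held 5.07, 9.26 and 4.86% of Igkv counts in KO_DTH, 5.97, 4.73 and 5.39% in KO_se, 4.25, 5.11 and 4.73% in WT_DTH and 5.69, 4.35 and 6.16% in WT_se replicates 1, 2 and 3. KO_DTH replicate 2 stood above the other 11 libraries, which all lay between 4.25 and 6.16%. Its exact binomial 95% interval was 8.89 to 9.64%. Such intervals cover counting error only, treat each estimated count as a separate read and leave out the splitting of reads between near copies.

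Igkv1-117 followed with a mean share of 5.41%. It held 6.10, 4.33 and 5.44% in KO_DTH, 3.65, 5.07 and 4.61% in KO_se, 7.72, 6.02 and 5.05% in WT_DTH and 6.55, 5.92 and 4.42% in WT_se replicates 1, 2 and 3. It was the highest segment of 8 libraries, with all 3 WT_DTH libraries among them. Igkv10-96 led in 3 libraries, and Igkv6-32 led in KO_se replicate 1. Averaged over both states, the log2 change of the share of Igkv1-117 in knockout over wild-type nodes was −0.29 ± 0.13 (SE, edgeR adjusted p = 0.252), which did not pass the threshold of 0.05.

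The next 8 by mean share were Igkv1-110 (3.84%), Igkv1-135 (2.997%), Igkv19-93 (2.90%), Igkv6-32 (2.86%), Igkv12-44 (2.84%), Igkv17-127 (2.79%), Igkv6-15 (2.78%) and Igkv17-121 (2.64%). Igkv4-57, Igkv9-120, Igkv3-2, Igkv6-23 and Igkv5-43 completed the leading 15, with 2.21 to 2.59%. Some of these were steady and others were not. Igkv17-121 held between 2.26 and 3.37% in all 12 libraries. Igkv4-57 held 1.66, 2.27 and 2.81% in KO_DTH, 4.98, 1.84 and 5.32% in KO_se, 4.91, 1.32 and 1.11% in WT_DTH and 1.12, 0.788 and 2.89% in WT_se replicates 1, 2 and 3, so that KO_se, WT_DTH and WT_se each had high and low libraries.

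**Figure D2:**
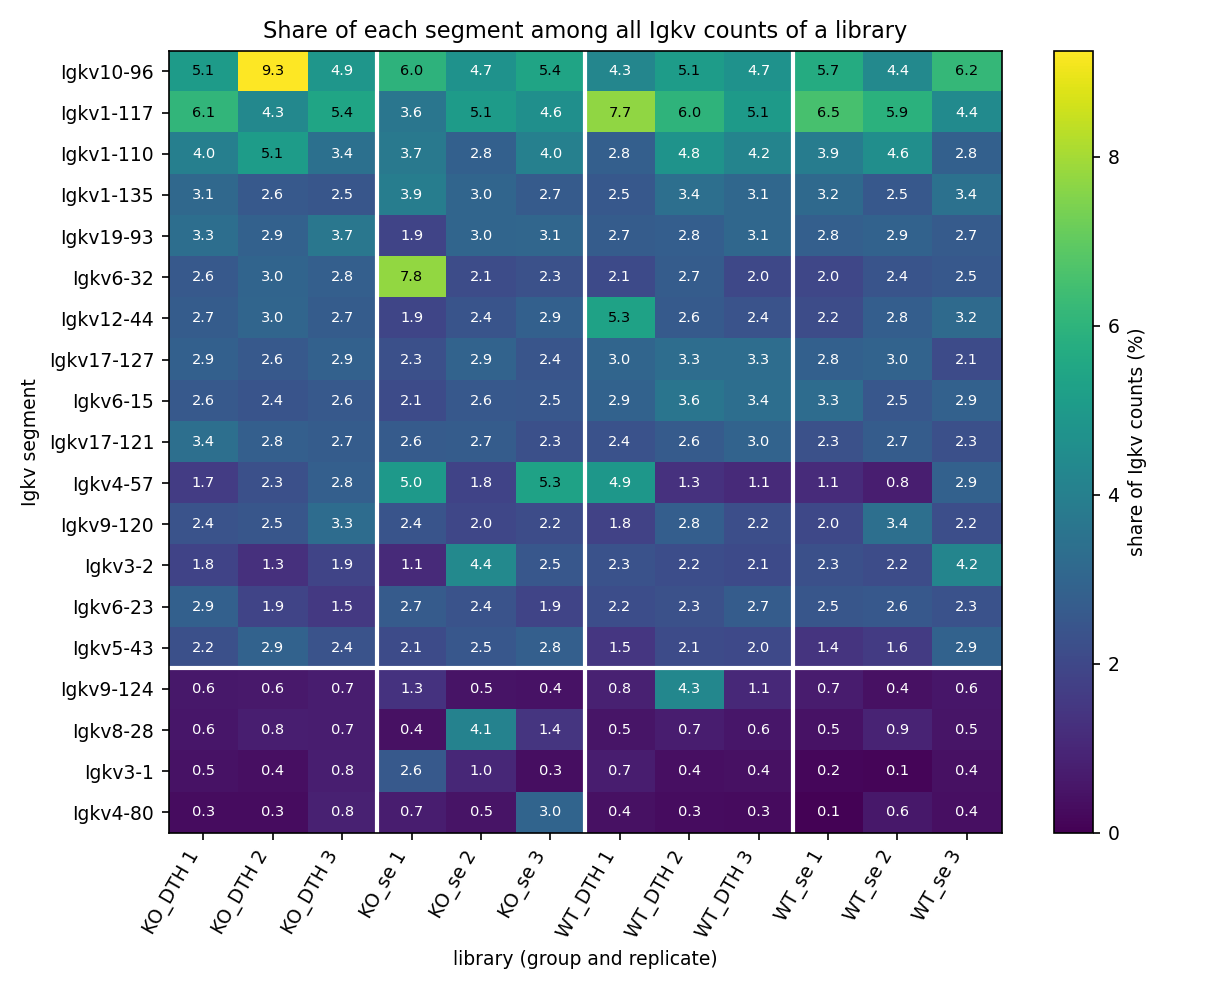
Share of Igkv counts (%, colour and printed number) for the 15 segments of highest mean share (above the white line) and the 4 segments that stood out in a single library (below it), in each of 12 libraries. Igkv10-96 and Igkv1-117 are high throughout, and single bright cells mark Igkv10-96 in KO_DTH 2, Igkv6-32 in KO_se 1, Igkv8-28 in KO_se 2 and Igkv9-124 in WT_DTH 2.

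Several segments were prominent in a single library. Among the 60 segments of highest mean share, the highest library was a median of 1.73 times the segment's own median over 12 libraries, with 18 segments above 2 times and 10 above 3 times. By the criterion of a share of at least 2% in a library and at least 5 times the segment's median, 4 segments stood out, and 3 of these 4 did so in KO_se nodes, each in a different replicate. Igkv8-28 held 4.09% in KO_se replicate 2, 6.36 times its median of 0.643%. Igkv4-80 held 2.997% in KO_se replicate 3, 7.47 times its median of 0.401%. Igkv3-1 held 2.60% in KO_se replicate 1, 6.21 times its median of 0.419%. Igkv9-124 held 4.30% in WT_DTH replicate 2, 6.38 times its median of 0.674%. These values rest on 756 to 1327 counts each, and the exact binomial 95% intervals are narrow, for example 3.87 to 4.31% for Igkv8-28. They do not cover the splitting of reads, and Igkv8-28 has a near copy, Igkv8-19, of 97.5% identity.

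Igkv6-32 missed that criterion because it was common everywhere. It held 2.59, 2.99 and 2.80% in KO_DTH, 7.76, 2.14 and 2.28% in KO_se, 2.07, 2.70 and 2.02% in WT_DTH and 1.98, 2.42 and 2.54% in WT_se replicates 1, 2 and 3. In KO_se replicate 1 it was the highest segment of the library, on 3757 counts (95% interval 7.53 to 8.005%). The other 11 libraries lay between 1.98 and 2.99%. The segments in question lie far apart: counted in order from Igkc, Igkv3-1 is number 1, Igkv8-28 number 24, Igkv6-32 number 27, Igkv4-80 number 61 and Igkv9-124 number 90 of 100. Their printed ends above belong to 5 different families.

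Whole profiles were about as alike between groups as within them. The overlap of a pair of libraries, taken as the sum over segments of the smaller of both shares, had a median of 84.0% over 12 pairs within groups (74.8 to 89.2%) and 82.2% over 54 pairs between groups (74.9 to 88.4%). KO_se replicate 1 was least like the rest, with a median overlap of 76.4% to the other 11 libraries, while the medians of those 11 ran from 81.6 to 84.5%. Within groups, the KO_se pairs overlapped by 74.8, 78.3 and 80.7%, and the pairs of the other groups by 81.0 to 89.2%. Libraries of the same group still differed, with a chi-square per degree of freedom of 8.60 to 86.7 over the segments. It was 42.9 to 86.7 for the KO_se pairs and 8.60 to 27.2 for the pairs of the other groups. This statistic grows with the number of counts, and KO_se had the highest group mean of Igkv counts. Counting noise alone would give 1 if each estimated count were a separate read, which the deposited values do not ensure.

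Segment use was also described by its evenness, the Shannon entropy of the shares divided by its maximum, where 1 is an equal split. Evenness was 0.875 ± 0.0118 in KO_DTH, 0.870 ± 0.0119 in KO_se, 0.877 ± 0.0108 in WT_DTH and 0.882 ± 0.00126 in WT_se nodes (SD, n = 3 each). This corresponds to 55.3 ± 2.97, 54.1 ± 2.90, 55.9 ± 2.79 and 57.0 ± 0.329 equally used segments in KO_DTH, KO_se, WT_DTH and WT_se nodes. Evenness lay between 0.856 and 0.877 in the KO_se libraries and between 0.881 and 0.883 in the WT_se libraries, a difference of −0.0116 with no overlap (exact permutation p = 0.1, the smallest possible; adjusted 0.394). Without KO_se replicate 1 the difference was −0.00479. The 3 WT_se libraries also lay inside the range of the WT_DTH libraries, 0.868 to 0.889. With members summed by family KO_se and WT_se overlapped, at 0.818 to 0.861 in KO_se and 0.842 to 0.857 in WT_se.

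The other comparisons of evenness were within the spread between libraries. The difference was −0.00243 for KO_DTH minus WT_DTH (exact permutation p = 0.8), 0.00490 for KO_DTH minus KO_se (p = 0.6) and −0.00431 for WT_DTH minus WT_se (p = 0.6). The genotype effect averaged over both states was −0.00704 (exact permutation p = 0.25). The 5 highest segments of each library together held 22.5 ± 2.26% of Igkv counts in KO_DTH, 23.6 ± 2.46% in KO_se, 23.2 ± 2.39% in WT_DTH and 21.7 ± 0.751% in WT_se nodes (SD, n = 3 each), and no comparison of these passed (exact permutation p from 0.3 to 0.8).

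**Figure D3:**
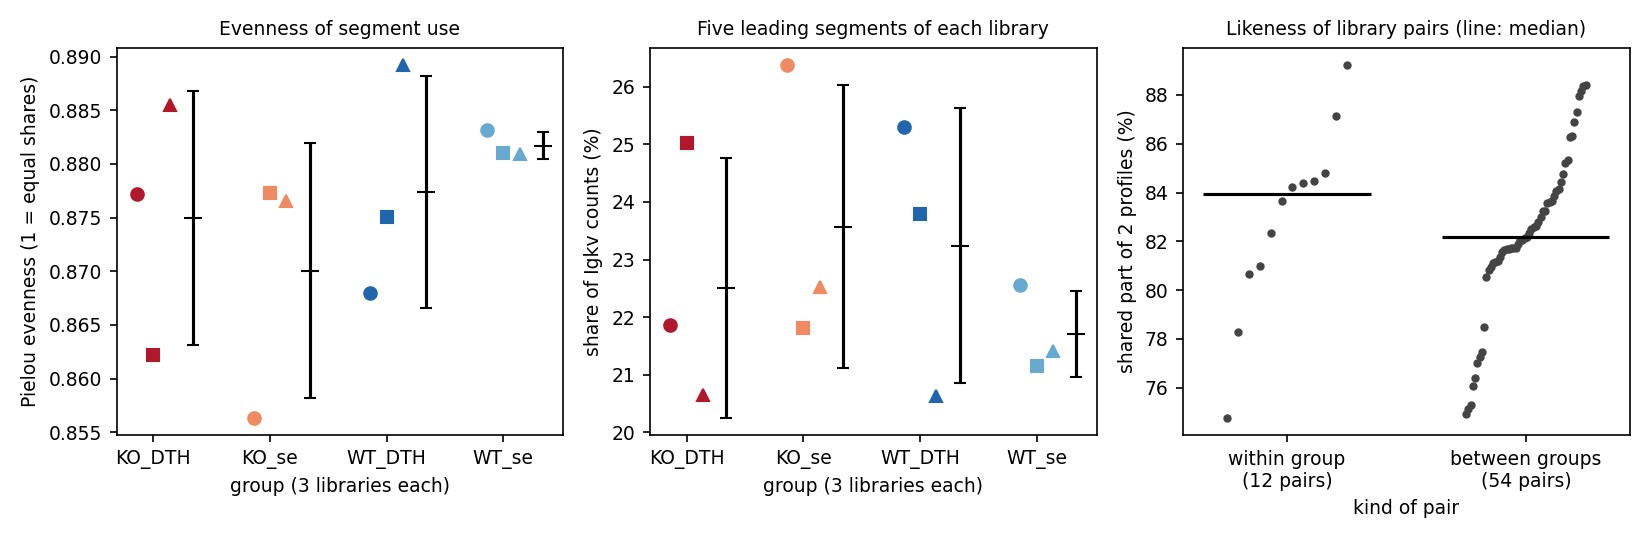
Evenness of segment use (left; axis not starting at 0) and the share of Igkv counts held by the 5 highest segments of each library (middle; axis not starting at 0), with symbols for replicates and mean ± SD of 3 libraries, and the overlap of segment profiles for every pair of libraries (right). The KO_se and WT_se libraries do not overlap in evenness, the other groups overlap, and pairs within and between groups cover nearly the same range.

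Each segment was then tested in a fit across all 20034 genes that passed the filter on low counts (edgeR quasi-likelihood, Benjamini-Hochberg adjusted over all of them, threshold 0.05). Of the 100 members, 93 passed that filter. Of the other 7, 2 had no counts at all and 5 had too few. A segment was tested on 2 scales. Scaled to the library, a change means more or less of the segment's RNA relative to the library size after TMM normalisation. This is not the same quantity as the percent of all counts used above, and changes on it can differ in size, as the Igkc values above show. Scaled to all Igkv counts, a change means that the segment took a larger or smaller share of the kappa repertoire, whatever the amount of kappa RNA.

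In sensitized nodes, knockout against wild type, 15 of 93 segments rose and none fell on the library scale (16.1% of members, against 5.17% of all genes called in either direction). The fitted change was above 0 for 85 of 93 segments, with a median log2 fold change of 0.91 against −0.01 over all genes tested. The unadjusted edgeR p was under 0.05 for 44. The share of all genes with an unadjusted p under 0.05 is not given here, for this or the other comparisons. In TMM-normalised CPM, as for all levels from here on, Igkv17-121 had 23.1, 19.0 and 12.2 CPM in KO_se against 9.04, 7.59 and 7.76 CPM in WT_se replicates 1, 2 and 3, a log2 change of 1.12 ± 0.20 (SE, adjusted p = 0.00793). Every KO_se library lay above every WT_se library. Igkv5-43 had 18.3, 17.5 and 15.1 CPM in KO_se against 5.55, 4.54 and 10.1 CPM in WT_se (1.31 ± 0.27, adjusted p = 0.0167), and its near copy Igkv5-45 changed by the same 1.31 ± 0.28 (adjusted p = 0.0200). Igkv3-12, Igkv19-93 and Igkv17-127 rose by 1.85 ± 0.38, 0.90 ± 0.19 and 0.97 ± 0.21 (adjusted p from 0.0166 to 0.0198), again with no overlap between the groups. Igkv17-127 is a near copy of Igkv17-121, with 97.9% identity over the last 280 bases, so the calls of this pair may not be separate.

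Among the called segments, the largest fitted changes belonged to those that were prominent in a single library. Igkv3-1 had 22.7, 7.18 and 1.83 CPM in KO_se against 0.648, 0.394 and 1.41 CPM in WT_se (3.65 ± 0.80, adjusted p = 0.0222), and without KO_se replicate 1 its change was 2.43 with an adjusted p of 0.0850. Igkv4-80 had 6.34, 3.30 and 16.1 CPM in KO_se against 0.253, 1.65 and 1.29 CPM in WT_se; it changed by 2.97 ± 0.73 (adjusted p = 0.0357), and by 2.13 with an adjusted p of 0.112 without KO_se replicate 3. Igkv8-28 had 3.48, 28.6 and 7.59 CPM in KO_se against 1.83, 2.60 and 1.86 CPM in WT_se; it changed by 2.63 ± 0.59 (adjusted p = 0.0246), and by 1.37 with an adjusted p of 0.0876 without KO_se replicate 2. In these 3 segments every KO_se library lay above every WT_se library, with a single KO_se library far above the rest. Igkv6-32 had 67.8, 14.98 and 12.3 CPM in KO_se against 7.83, 6.77 and 8.73 CPM in WT_se, again with no overlap; it changed by 1.99 ± 0.50 (adjusted p = 0.0398), and by 0.78 with an adjusted p of 0.0788 without KO_se replicate 1. The calls for Igkv4-80, Igkv8-28 and Igkv6-32 were lost as well without any single WT_se library, that for Igkv4-80 also without KO_se replicate 1, and that for Igkv3-1 without WT_se replicate 1 or 2. The remaining segments that rose were Igkv1-135, Igkv1-110, Igkv6-23, Igkv15-103 and Igkv14-111, with changes of 0.94 to 1.63.

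The number of calls changed with the libraries included. The count of 15 became 4, 5 and 19 without KO_se replicates 1, 2 and 3, and 9, 1 and 3 without WT_se replicates 1, 2 and 3. It was 0 with the salivary gland score as a covariate. Counts from such refits, here and below, stand without the share of all genes called in the same refit. They therefore do not show whether the segments lost or gained calls more than other genes. Igkv17-121 alone passed without each of the 6 libraries in turn, and with the salivary score its change was 0.86 with an adjusted p of 0.186. Under that covariate the changes of the 15 segments all stayed above 0, from 0.62 to 3.23; the part of other tissue in these changes was not tested.

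Scaled to all Igkv counts, 3 of 93 segments passed in the same comparison (background 5.07% of all genes), and the median change over the members was −0.09. Igkv13-85 held 0.471, 0.792 and 0.511% of Igkv counts in KO_se against 1.79, 1.24 and 1.05% in WT_se replicates 1, 2 and 3, and its share fell by 1.20 ± 0.25 on the log2 scale (SE, edgeR adjusted p = 0.0168). Igkv2-109 held 0.514, 0.659 and 0.642% in KO_se against 1.22, 0.938 and 0.944% in WT_se, a share change of −0.77 ± 0.20 (adjusted p = 0.0445). In both segments every KO_se library lay below every WT_se library. On the library scale these did not pass, at −0.22 ± 0.32 for Igkv13-85 and 0.20 ± 0.28 for Igkv2-109. The share of Igkv3-1 rose by 2.46 ± 0.64 (adjusted p = 0.0466), which became 1.51 with an adjusted p of 0.185 without KO_se replicate 1. Of the 15 segments that rose on the library scale, Igkv3-1 alone also passed on the share scale; Igkv17-121, for example, had a share change of 0.07 ± 0.14. The call for Igkv2-109 was lost without any single library of the comparison, and that for Igkv13-85 was lost without KO_se replicate 1, KO_se replicate 3 or WT_se replicate 1.

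**Figure D4:**
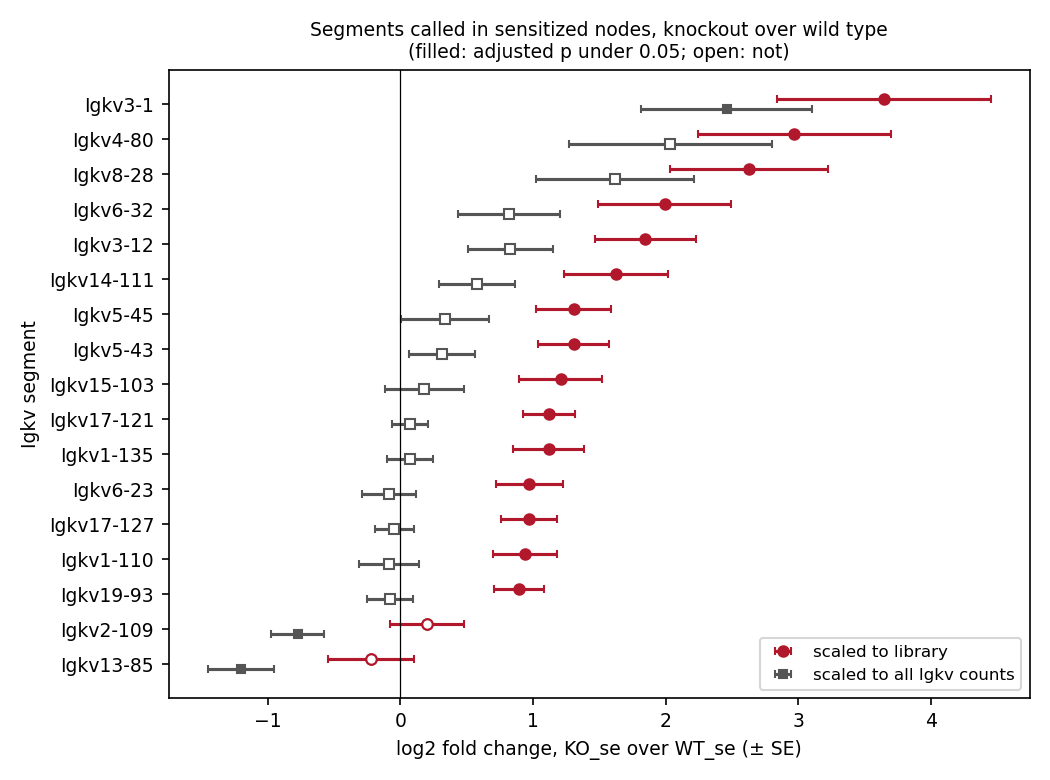
Log2 fold change of KO_se over WT_se (± SE, 3 libraries a group) for the 17 segments called on either scale, scaled to the library (red circles) and to all Igkv counts (grey squares); filled symbols have an adjusted p under 0.05. Segments that rose on the library scale have smaller changes as a share, from −0.09 to 2.46, and Igkv3-1 alone passes on both scales. Igkv13-85 and Igkv2-109 lie near 0 on the library scale and below 0 as a share.

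In challenged nodes no segment passed between the genotypes. On the library scale 0 of 93 were called (edgeR, background 0.599% of all genes), 5 had an unadjusted p under 0.05 and the lowest adjusted p was 0.167. DESeq2, for which no share over all genes is given here, called 1. The median change over the members was 0.09. Scaled to all Igkv counts, 0 of 93 were called as well (background 0.599%), with 5 at an unadjusted p under 0.05 and a lowest adjusted p of 0.147. Igkv10-96, for example, had a share change of 0.45 ± 0.22 in KO_DTH over WT_DTH (adjusted p = 0.381).

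The difference between the genotype effects before and after challenge was tested directly. It passed for 0 of 93 segments on the library scale (background 2.11% of all genes) and for 0 on the share scale (background 2.11%). On the library scale 27 segments had an unadjusted p under 0.05 in edgeR, and the lowest adjusted p was 0.0736. The fitted interaction was above 0 in only 13 of 93 segments, with a median of −0.83 against −0.01 over all genes. DESeq2, again without a share over all genes, called 5. On the share scale 9 had an unadjusted p under 0.05. The absence of calls in challenged nodes is thus not shown to differ, segment by segment, from the 15 calls in sensitized nodes.

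Averaged over both states, 8 of 93 segments rose with the knockout on the library scale and none fell (background 4.74% of all genes). They were Igkv5-43 (0.93 ± 0.19, adjusted p = 0.0167), Igkv17-121 (0.68 ± 0.14, adjusted p = 0.0174), Igkv5-45, Igkv19-93, Igkv15-103, Igkv10-94, Igkv3-12 and Igkv14-111, whose changes were 0.60 to 1.10. Igkv5-43 had 9.03, 16.6 and 13.4 CPM in KO_DTH against 8.64, 8.73 and 9.59 CPM in WT_DTH replicates 1, 2 and 3, so that in the challenged nodes the groups overlapped for this segment. On the share scale 2 of 93 passed (background 4.68%), both lower in the knockout. Igkv5-39 held 1.23, 1.39 and 1.15% in KO_DTH and 1.34, 1.55 and 1.17% in KO_se, against 2.72, 1.94 and 1.49% in WT_DTH and 1.75, 2.01 and 2.46% in WT_se, and its share fell by 0.66 ± 0.15 (SE, edgeR adjusted p = 0.0312). Igkv13-85 held 0.821, 0.842 and 0.881% in KO_DTH and its share fell by 0.71 ± 0.17 over both states (adjusted p = 0.0381). Without single libraries the 8 library-scaled calls became 1 to 11, and the 2 share calls 0 to 2; Igkv5-43 passed in all 18 alternative settings, Igkv5-39 in 4 of 15 and Igkv13-85 in 2 of 15.

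In challenged against sensitized knockout nodes (KO_DTH against KO_se) the library-scaled change was above 0 in 23 of 93 segments, and 1 segment was called, lower, against 9.67% of all genes. That segment, Igkv4-59, had 5.34, 6.54 and 8.57 CPM in KO_DTH against 15.6, 14.6 and 17.1 CPM in KO_se (−1.20 ± 0.35, adjusted p = 0.0484). The groups did not overlap, yet the call was lost without any single library of the comparison. On the share scale 2 of 93 passed (background 9.69%). Igkv6-17 held 2.79, 2.66 and 1.97% in KO_DTH against 1.33, 1.67 and 1.26% in KO_se, a share change of 0.80 ± 0.16 (adjusted p = 0.00687), and it passed in all 9 alternative settings tried. It held 2.66, 2.46 and 2.39% in WT_DTH and 2.01, 2.24 and 2.12% in WT_se replicates 1, 2 and 3. The KO_se libraries thus lay below every library of the other groups, and KO_DTH overlapped both wild-type groups. Igkv4-72 held 1.66, 1.49 and 0.924% in KO_DTH against 0.554, 0.665 and 0.916% in KO_se (0.93 ± 0.26, adjusted p = 0.0398), with no overlap but close values in the third replicates, and passed in 3 of 9 alternative settings; it was lost without KO_se replicate 1 or 2 or KO_DTH replicate 1 or 2.

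In challenged against sensitized wild-type nodes (WT_DTH against WT_se) 4 of 93 segments rose on the library scale and none fell, against 18.7% of all genes called. They were Igkv17-127 (0.76 ± 0.21, adjusted p = 0.0231), Igkv9-124 (2.19 ± 0.64, adjusted p = 0.0299), Igkv6-17 (0.73 ± 0.23, adjusted p = 0.0434) and Igkv17-121 (0.61 ± 0.20, adjusted p = 0.0479). Igkv9-124 had 4.90, 17.7 and 5.06 CPM in WT_DTH against 2.82, 1.13 and 1.91 CPM in WT_se, with no overlap; its call was lost without WT_DTH replicate 2 (1.34, adjusted p = 0.143), WT_se replicate 2 or WT_se replicate 3. The median over the members was 0.46. With the salivary score as a covariate none of the 93 passed; the changes were then 0.25 for Igkv17-127, 2.65 for Igkv9-124, 0.54 for Igkv6-17 and 0.22 for Igkv17-121. The salivary list fell in WT_DTH in 16 of 18 genes tested, and its part in the segment changes was not tested. On the share scale 2 of 93 passed (background 18.7%). The share of Igkv9-124 rose by 1.89 ± 0.58 (adjusted p = 0.0395), or 0.78 with an adjusted p of 0.268 without WT_DTH replicate 2, and it was lost as well without any single WT_se library. Igkv12-89 held 0.402, 0.353 and 0.633% in WT_DTH against 0.797, 0.872 and 1.03% in WT_se (−0.96 ± 0.30, adjusted p = 0.0424), with no overlap, but the call was lost without any single library but WT_DTH replicate 3. The library-scaled count was 1 to 7 without single libraries.

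No change in share was called for the leading segments. Of the 90 share tests of the 15 leading segments over the 6 comparisons (edgeR, scaled to all Igkv counts), 0 passed, 4 had an unadjusted p under 0.05 and the lowest adjusted p was 0.0706. In the same fit 0.599 to 18.7% of all genes were called, depending on the comparison. On counts simulated for KO_se against WT_se, this fit recovered 1 of 9 2-fold changes of Igkv members. The absence of calls therefore does not show that the shares of the leading segments were unchanged. Their fitted share changes ran from −1.45 to 1.33. Both ends belonged to Igkv4-57, at −1.45 ± 0.83 for the interaction (adjusted p = 0.444) and 1.33 ± 0.60 for KO_se over WT_se (SE, edgeR adjusted p = 0.216).

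By family, the 26 members of Igkv4 together held the most Igkv counts, with a mean of 15.1%, followed by Igkv6 (14.01%, 9 members), Igkv1 (13.4%, 10 members), Igkv3 (8.97%, 9 members) and Igkv10 (7.29%, 3 members). Per member, Igkv19 (2.90%, a single segment), Igkv17 (2.71%) and Igkv10 (2.43%) were higher than Igkv4 (0.582%). Igkv4 peaked at 20.8% in KO_se replicate 3, where Igkv4-80 and Igkv4-57 were high, and Igkv10 at 11.5% in KO_DTH replicate 2, where Igkv10-96 was high. Igkv9 reached 7.25% in WT_DTH replicate 2, where Igkv9-124 was high. In KO_se replicate 3 Igkv4-59 was also at its highest, at 3.18% against a median of 1.61%. Igkv4-59 was nearly as high in WT_se replicate 1, at 3.08%, so its high share was not particular to KO_se replicate 3.

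The kappa locus holds segments in both orientations; those in the orientation of Igkc join by deletion and the others by inversion. Of the 100 members, 62 are annotated on the strand opposite to Igkc and 38 on the same strand. The opposite ones held 56.4 ± 0.348% of Igkv counts in KO_DTH, 57.3 ± 2.61% in KO_se, 55.2 ± 0.482% in WT_DTH and 56.5 ± 1.67% in WT_se nodes (SD, n = 3 each). Split into blocks of 25 segments by order from Igkc, the nearest block held a mean of 25.5%, the next 24.3%, the next 19.8% and the farthest 30.5%. The farthest block, which includes Igkv1-117, Igkv1-110, Igkv17-121, Igkv17-127 and Igkv1-135, held 31.1 ± 0.492% in KO_DTH, 28.5 ± 1.96% in KO_se, 32.3 ± 3.76% in WT_DTH and 30.1 ± 2.40% in WT_se nodes.

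**Figure D5:**
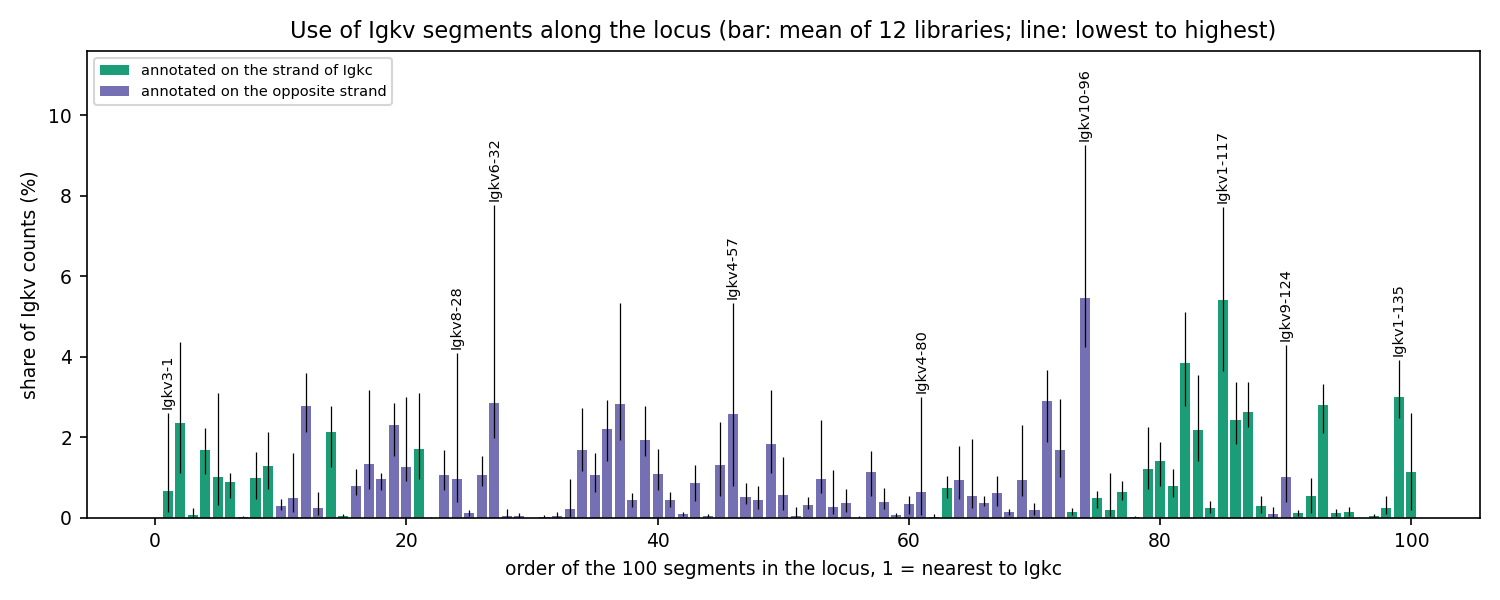
Mean share of Igkv counts (%, bars; lines run from the lowest to the highest of 12 libraries) for the 100 segments in their order along the locus, with number 1 nearest to Igkc and colour for annotated strand. Highly used segments occur along the whole locus, Igkv10-96 and Igkv1-117 stand highest, and the long lines at low bars, as for Igkv8-28 and Igkv9-124, mark segments high in a single library.

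The genes that work with these segments were read from the same library-scaled fit. In sensitized nodes, 5 of 6 genes of the kappa constant and joining exons rose in KO_se over WT_se. Of all genes, 5.17% were called in either direction in this comparison. Igkc rose by 1.09 ± 0.21 (adjusted p = 0.0118), and Igkj5 by 1.28 ± 0.22 (adjusted p = 0.00736), while Igkj3, whose joining segment is not functional in mice, was at 0.26 ± 0.39. Of 9 tested lambda light chain genes, 5 rose. The lambda variable segment Iglv1 had 45.4 ± 2.80 CPM in KO_se against 16.1 ± 1.47 in WT_se (SD, n = 3 each; log2 change 1.47 ± 0.20, adjusted p = 0.00213). Lambda segments held 5.13 ± 0.782% of all light chain variable counts in KO_DTH, 7.50 ± 1.49% in KO_se, 5.93 ± 0.596% in WT_DTH and 6.51 ± 0.793% in WT_se nodes.

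Genes of antibody-secreting cells and of class-switched antibody stood beside these. In KO_se over WT_se, 6 of 12 plasma cell genes rose and 1 fell (background for the lists of this paragraph 5.17% of all genes). Jchain, which links IgA and IgM polymers, had 166 ± 70.6 CPM in KO_se against 34.2 ± 12.3 in WT_se (log2 change 2.24 ± 0.44, adjusted p = 0.0131), while Xbp1, a transcription factor of secretory cells, fell by 0.86 ± 0.14 (adjusted p = 0.00488). Of 8 heavy chain constant genes, 4 rose. Igha, the constant gene of IgA, had 85.1 ± 53.7 CPM in KO_DTH and 263 ± 32.3 in KO_se, against 3.79 ± 2.05 in WT_DTH and 6.99 ± 0.561 in WT_se (SD, n = 3 each). Heavy chain constant genes are close copies of each other, so these counts are uncertain between them. Of the 10 germinal centre genes 3 rose, among them Mki67, a marker of dividing cells (1.69 ± 0.24, adjusted p = 0.00234), and 3 of 12 B cell genes rose, with a list median of 0.57. The part of these cells in the Igkv changes was not tested.

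Of 17 genes for light chain assembly and transcription, Irf4, Irf8 and Spib, transcription factors that act at light chain enhancers in mice, rose in KO_se over WT_se by 0.67 ± 0.12, 0.57 ± 0.11 and 0.64 ± 0.16 (edgeR adjusted p from 0.00704 to 0.0354). Rag1, part of the recombinase that joins the segments, was at 2.45 ± 0.460 CPM in KO_se against 0.728 ± 0.228 in WT_se (SD, n = 3 each) and did not pass (1.72 ± 0.62, adjusted p = 0.125). No gene of the salivary list passed in this comparison, though its 18 tested genes had a median of −1.44, and 2 of 10 T cell genes fell. The share of all genes called in KO_se over WT_se was 5.17%. In challenged nodes, knockout against wild type, none of the kappa, lambda, plasma cell or germinal centre genes passed, while Igha rose by 4.53 ± 0.48 (edgeR adjusted p = 0.00125). There 2 of 18 salivary genes rose and 1 of 17 light chain assembly genes fell (background 0.599% of all genes). In KO_DTH against KO_se, 5 of 9 lambda genes, 5 of 10 germinal centre genes, 3 of 10 T cell genes, 1 of 12 B cell genes, 2 of 8 heavy chain constant genes and, of 12 plasma cell genes, Jchain fell. In the same comparison the plasma cell gene Xbp1 and 2 of 18 salivary genes rose, and 4 of 17 light chain assembly genes rose and 1 fell. None of the 6 kappa constant and joining genes passed. The share of all genes called in KO_DTH against KO_se was 9.67%, and the B cell count lay below it. In WT_DTH against WT_se, 9 of 12 B cell genes and 3 of 6 kappa constant and joining genes rose, with Igkc at 0.66 ± 0.21 (adjusted p = 0.0433). All 10 T cell genes fell, with a median of −0.66. Of 12 plasma cell genes 5 rose and 2 fell, and of 17 light chain assembly genes 5 rose and 1 fell. In the other lists, 1 of 10 germinal centre genes and 1 of 8 heavy chain constant genes rose, and none of 9 lambda genes passed. The share of all genes called in WT_DTH against WT_se was 18.7%, and the germinal centre, heavy chain constant and lambda counts lay below it.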

How the data were processed

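Whole nodes were sequenced from total RNA with a directional kit. The tools, per the submitters' processing notes, were fastp 0.23.2, HISAT2 2.2.1 and StringTie 2.2.1, with the genome build GRCm39; the annotation and the use of strand are not given in the sources used here. The values are estimated counts per gene as deposited, all whole numbers, so no rounding was needed.

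Symbols, gene classes, gene order, strand and transcripts came from GENCODE M21, which is on an older build, so no coordinates are given. Of 56941 genes, 51948 had a name; the rest held 0.326 to 0.543% of counts. The members and gene lists were chosen with earlier results of these data known.

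edgeR 4.0.16 in R 4.3.3 was fitted to all 12 libraries with a mean per group (TMM, filterByExpr with a minimum count of 10, quasi-likelihood test, 8 residual degrees of freedom, threshold 0.05). For shares, members took the log of the library's Igkv total as offset in the same fit. Evenness, amounts and the share of the 5 leading segments were compared by exact permutation over libraries with scipy 1.17.1; 3 against 3 allow no p below 0.1, and permuting within states none below 0.005. CPM values of segments and listed genes are TMM-normalised, except the first given for Igkc. Intervals are exact binomial (Clopper-Pearson) at 95%. On counts simulated for KO_se against WT_se (19216 genes), 61% of 2-fold and 89% of 4-fold changes were recovered; among Igkv members it was 1 of 9 and 7 of 11.

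Named segments are the 15 of highest mean share, the leader of each library, those of at least 2% and 5 times their median in a library, up to 5 called in each direction per comparison and scale, and the 3 lowest tested; the other called segments are named in addition, chosen after their values were seen. Alternatives were other filters, scalings and tests (DESeq2 1.42.0), a replicate block, a salivary score, libraries left out, thinning, pseudogenes, families and Simpson evenness; after seeing the data, segment length and the B cell list were added. No sample or column was left out.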

Additional observations from a re-analysis of the deposited data

How the results depend on the processing

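No call of a segment changed sign: over 37 called results, 253 alternative settings kept the call and 224 lost it. Scaled to the library, KO_DTH against KO_se (1 call) gave 0 with no filter, with the replicate block and with the salivary score, and 2 with a mean of at least 50 counts. DESeq2 called 30 in KO_se against WT_se, 1 in KO_DTH against WT_DTH, 7 in KO_DTH against KO_se, 9 in WT_DTH against WT_se, 21 for the averaged genotype effect and 5 for the interaction, and these held all the edgeR calls of each comparison. The backgrounds given above are from the main edgeR fits. No share of all genes is given here for DESeq2 or the other alternative settings. The salivary score as a covariate gave 0 in KO_se against WT_se and 0 in WT_DTH against WT_se. Scaled to all Igkv counts, TMM factors over the members gave 0 for the averaged genotype effect, and no filter gave 1 in KO_se against WT_se, 1 in KO_DTH against KO_se, 0 in WT_DTH against WT_se and 1 for the averaged effect. The cause was not tested in these cases.

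What a shared replicate number stands for is not in the labels. Of 18 pairs of libraries with the same number, 1 had a correlation of deviations above 0.1 (−0.0984 to 0.141), though 8 of 12 libraries had their best partner among those of their own number. With the replicate block, WT_DTH against WT_se had 2 calls on the library scale, and on the share scale KO_se against WT_se, KO_DTH against KO_se and WT_DTH against WT_se had 1 each; in blocked exact tests KO_se against WT_se kept its evenness difference of −0.0116 and its amount difference of 0.0391, each with exact permutation p = 0.25.

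Leaving out a library in turn gave, on the library scale, 1 to 19 calls in KO_se against WT_se, 0 in KO_DTH against WT_DTH, 0 to 4 in KO_DTH against KO_se, 1 to 7 in WT_DTH against WT_se, 1 to 11 for the averaged genotype effect and 0 to 6 for the interaction, and on the share scale 0 to 4, 0, 1 to 3, 0 to 2, 0 to 2 and 0 to 1 in the same order. The share of all genes called in these refits is not given here. In that order without the interaction, differences of evenness ran from −0.0152 to −0.00479, −0.00769 to 0.00395, −0.00196 to 0.0113, −0.0102 to 0.000390 and −0.00967 to −0.00361. The Igkv share of all counts ran from 0.0325 to 0.0475, −0.00982 to 0.00232, −0.0266 to −0.0117, 0.0185 to 0.0296 and 0.0143 to 0.0218 percentage points, with p = 0.045 by exact permutation for the averaged effect without WT_DTH replicate 1 (0.0207). The share of the 5 leading segments ran from 0.458 to 2.74, −2.04 to 0.305, −2.31 to 0.345, 0.498 to 2.84 and −0.136 to 1.08 percentage points.

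Members summed by family turned the evenness difference of KO_DTH against WT_DTH to 0.00186 and the 5-family share of WT_DTH against WT_se to −0.332. The Igkv amount of KO_DTH against WT_DTH turned to 0.00300 outside salivary and mitochondrial counts and to 2.08 per 100 B cell list counts, where WT_DTH against WT_se turned to −1.69 and the averaged genotype effect reached 3.77. Thinning each library to 10666 Igkv counts changed no direction.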

Other observations

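The order of joining segment use by mean, Igkj1, Igkj2, Igkj5 and Igkj4 from high to low, was the same in all 4 groups. Of the counts on the 4 functional joining segments, Igkj1 held 35.8 ± 1.82% in KO_DTH, 37.0 ± 5.78% in KO_se, 33.2 ± 2.14% in WT_DTH and 36.4 ± 4.46% in WT_se nodes (SD, n = 3 each). Igkj2 held 29.8 ± 1.54% in KO_DTH, 26.0 ± 3.99% in KO_se, 28.2 ± 0.908% in WT_DTH and 29.9 ± 1.35% in WT_se nodes. Igkj5 held 20.0 ± 2.09% in KO_DTH, 21.6 ± 0.670% in KO_se, 21.6 ± 2.68% in WT_DTH and 18.7 ± 1.74% in WT_se nodes, and Igkj4 held 14.3 to 17.0% on average. No test was made on these shares. The pairing of a variable with a joining segment within a single transcript cannot be read from a table of counts per gene.

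KO_se replicate 1 had the most Igkv counts (48398), the lowest evenness (0.856) and the highest number of Igkv counts per 100 B cell list counts (23.95) of all 12 libraries, and its leading segment was Igkv6-32.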
